A study of Homo sapiens with 11 samples.

Results

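The 10 genes described here belong to the epidermal protease system and were measured in hTert-HME1, a telomerase-immortalised line of human mammary epithelium. They are the kallikreins KLK5, KLK6, KLK7, KLK8, KLK10 and KLK11, the serpins SERPINB5, SERPINB7 and SERPINB13, and the inhibitor SPINK5. Each gene was chosen by its symbol, matched to the Ensembl identifiers of the deposited table of 40460 genes. Earlier results of these data, in which KLK5 and SERPINB13 were among the genes most raised by withdrawal of epidermal growth factor (EGF), were known when the set was drawn up. The set was therefore in part selected on the EGF withdrawal values, and those 2 comparisons are given for its genes as a description. So are the comparisons that use the same control libraries without EGF for KLK5, KLK7, KLK10 and SERPINB13. No p-value is printed for these, and counts past the test's threshold are set beside the share over all genes with nothing read from them. Of the 10 genes, 9 had a row in the table, and KLK6 was not analysed here. Of the 9, 6 passed a filter on low values (a linear value of 10, which is 3.32 in log2, reached by 2 or more libraries) and entered the test, and KLK8, KLK11 and SPINK5 did not.

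Total RNA, depleted of ribosomal RNA, was sequenced from 11 libraries of cells at passage 6 in a mammary epithelial growth medium. The cells had been transfected with the siRNA labelled control-2 or with the siRNA labelled BRCA2-1 and grown in complete medium with EGF or in medium without it. There were 3 libraries of control siRNA with EGF, 2 of control siRNA without EGF (replicates A and C), 3 of BRCA2 siRNA with EGF and 3 of BRCA2 siRNA without EGF. All groups were transfected cells of 1 line, and each target had 1 siRNA, so effects of that siRNA on other transcripts cannot be told apart from effects on its target. The labels call A, B and C biological replicates without saying whether they were separate cultures, and p-values measure the spread between these libraries.

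Kallikreins are secreted serine proteases made as inactive precursors. In the outer epidermis KLK5, a trypsin-like enzyme, activates itself and other kallikreins, KLK7 has chymotrypsin-like activity, and together they cut the desmosomal proteins that hold corneocytes together, so that cells can be shed. SPINK5 encodes LEKTI, a secreted inhibitor of KLK5 and KLK7 whose loss causes Netherton syndrome. Clade B serpins are mostly intracellular protease inhibitors of epithelia. SERPINB13 (headpin) inhibits lysosomal cysteine cathepsins, SERPINB7 is mutated in Nagashima-type palmoplantar keratosis, and SERPINB5 (maspin) is a serpin of myoepithelial and basal cells that does not act as a classical protease inhibitor.

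The promoters of the genes on which the results turn are shown first: KLK5 and SERPINB13 for their high levels without EGF, and SERPINB7 because it went the other way. In the RefSeq promoter table (GRCh38.p14), 9 of the 10 genes had an entry and these had 15 entries in all. KLK8 had no match. The 250 bases before the start are printed 5′ to 3′ on the gene's strand for KLK5 (chr19:50953039-50953288, minus strand), SERPINB13 (chr18:63587093-63587342, plus strand) and 1 of the entries of SERPINB7 (chr18:63777531-63777780, plus strand). Capitals mark a match to the AP-1 motif.
KLK5: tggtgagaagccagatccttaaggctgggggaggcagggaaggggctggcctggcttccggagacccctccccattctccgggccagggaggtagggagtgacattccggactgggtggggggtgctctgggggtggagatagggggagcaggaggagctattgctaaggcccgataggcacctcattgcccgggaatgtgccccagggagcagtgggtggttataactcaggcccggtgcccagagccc
SERPINB13: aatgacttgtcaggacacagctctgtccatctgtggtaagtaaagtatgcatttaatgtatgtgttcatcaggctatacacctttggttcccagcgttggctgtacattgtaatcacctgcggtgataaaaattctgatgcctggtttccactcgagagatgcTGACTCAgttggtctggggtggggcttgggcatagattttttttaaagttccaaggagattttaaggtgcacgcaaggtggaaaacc
SERPINB7: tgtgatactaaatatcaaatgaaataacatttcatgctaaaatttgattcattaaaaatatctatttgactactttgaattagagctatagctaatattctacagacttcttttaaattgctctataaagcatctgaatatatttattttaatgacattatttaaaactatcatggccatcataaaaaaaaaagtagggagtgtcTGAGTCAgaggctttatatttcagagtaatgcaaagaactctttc

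The AP-1 motif was searched as TGACTCA and its reverse complement TGAGTCA, which covers both strands. It was found in 3 of the 15 entries, which belonged to SERPINB13 (first base at position -87 from the start) and to SERPINB7 (position -45 in the entry printed above and -39 in another). The remaining SERPINB7 entry (chr18:63752807-63753056) did not hold it. Of all 35116 promoter entries cut to the same length, 4.20% held it. The motifs were chosen after the sequences were seen, and the SERPINB7 matches belong to alternative starts of a single gene, so nothing is read from these shares. The CRE motif TGACGTCA was in 0 of the 15 entries and in 1.65% of all entries, and the grainyhead motif AACCGGTT in 0 and in 0.12%. A GC box (GGGCGG or CCGCCC) was in 6 entries of 4 genes and in 42.64% of all entries. A TATA box (TATAAA or TTTATA) was in 2 entries, of SPINK5 and SERPINB7, and in 10.72% of all entries. The printed KLK5 sequence held none of these motifs.

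The table gives log2 values without counts, so the depth of the libraries is unknown. The values are not per gene length, and levels are compared here only within a gene. BRCA2 (ENSG00000139618), the target of the siRNA, lay between 12.37 and 12.43 in the 3 BRCA2-labelled libraries with EGF and between 12.13 and 12.48 in the 3 control libraries with EGF, a difference of 0.05 ± 0.12 (SE; limma, adjusted p = 0.999). Without EGF it lay between 12.11 and 12.48 in the BRCA2 siRNA libraries and at 11.44 and 11.65 in the control libraries. That is a difference of 0.74 ± 0.13 (limma, adjusted p = 0.00397) in the direction opposite to a knockdown. Among replicate A the difference was 1.04, and among B and C it was 0.54. These libraries are therefore called by their labels throughout. In each gene the mean of the 4 replicate A libraries equalled that of the 7 other libraries, so the deposited values are centred for A against B and C. The step that did this, and its reason, are not stated in the sources used here. Values within A and within B and C are given where they bear on a result.

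All 7 basal epithelial markers were tested, and their summed level (log2) was 18.63 to 18.77 in control siRNA with EGF, 19.52 to 19.70 in control siRNA without EGF, 18.72 to 18.81 in BRCA2 siRNA with EGF and 19.20 to 19.40 in BRCA2 siRNA without EGF. For luminal markers, 5 of 8 were tested, with KRT19, PGR and ELF5 under the filter, and the sums in the same order were 12.37 to 12.62, 12.21 to 12.24, 12.49 to 12.54 and 12.03 to 12.17. The luminal genes did not move together. With control siRNA, KRT18 fell on withdrawal from a mean of 11.87 to 10.94, while KRT8 rose from 10.93 to 11.39 and MUC1 from 4.14 to 5.73. Of the 5, 3 were called higher and 1 lower there, where 24.7% and 26.1% of all genes were. For keratinocyte differentiation, 4 of 7 were tested, with KRT1 and SPRR1A under the filter. Those sums were 8.53 to 8.91, 9.76 to 9.96, 8.74 to 8.96 and 9.11 to 9.28, so these sums, like the basal ones, were ordered by group as KLK5 and SERPINB13 were, but not by all their genes. TGM1 (withdrawal differences 3.43 ± 0.32 with control and 1.64 ± 0.28 with BRCA2 siRNA) and SPRR1B (3.47 ± 0.39 and 1.13 ± 0.34) were higher without EGF. SPRR1B passed the filter through libraries without EGF alone. KRT10 (-0.20 ± 0.23 and -0.51 ± 0.21) was not called, and IVL was at 6.52 and 6.69 in control siRNA without EGF and at 7.65 to 7.85 in BRCA2 siRNA without EGF, the opposite order. Of the basal genes KRT5, KRT14 and KRT17 were higher under both siRNAs and ITGA6 was lower (-0.40 ± 0.08 and -0.35 ± 0.07), and LAMB3 (-0.92 ± 0.54 and -0.73 ± 0.48) was not called. The sums of the fibroblast list, of which 6 of 7 genes were tested and COL1A2 was under the filter, had the same order, at 10.70 to 11.07, 13.03 to 13.16, 10.85 to 11.03 and 11.84 to 12.55. Not all its genes had that order. Without EGF, LUM had a mean of 7.62 with control and 8.05 with BRCA2 siRNA. With control siRNA, THY1 had a mean of 5.79 with EGF and 5.69 without it. Leukocyte and endothelial markers (0 of 7 tested; PTPRC, CD3E, CD68 and CDH5 under the filter) summed to between 3.82 and 4.36 in every library. Melanocyte markers (2 of 4 tested, with TYR and DCT under the filter) summed to 6.32 to 6.84 in control siRNA with EGF and 6.89 to 7.46 without it. With BRCA2 siRNA they summed to 6.21 to 6.51 with EGF and 6.88 to 6.97 without it, so the sums were higher without EGF under both siRNAs. The part of these marker levels in the results below was not tested. In bulk RNA, fewer cells of a type and less RNA per cell cannot be told apart.

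KLK5 (ENSG00000167754), the protease at the head of the kallikrein cascade, was far higher without EGF under both siRNAs. Its log2 values in replicates A, B and C were 4.74, 4.12 and 4.68 in control siRNA with EGF, and in replicates A and C they were 8.94 and 9.52 in control siRNA without EGF. In BRCA2 siRNA with EGF the values were 4.29, 4.32 and 5.59, and in BRCA2 siRNA without EGF 6.91, 7.50 and 7.80. The 2 groups with EGF overlapped, the BRCA2 siRNA libraries without EGF lay above all of them, and the control libraries without EGF lay above every other library. KLK5 was higher without EGF by 4.72 ± 0.40 on the log2 scale with control siRNA (26.3-fold) and by 2.67 ± 0.35 with BRCA2 siRNA (6.37-fold). With control siRNA the difference was 4.20 among replicate A and 5.12 among B and C.

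KLK7 (ENSG00000169035), which cuts corneodesmosomes and is itself activated by KLK5, was at a floor in all libraries with EGF. Its values were 2.12, 2.09 and 2.16 in control siRNA with EGF and 2.04, 2.11 and 2.14 in BRCA2 siRNA with EGF. Without EGF it stood at 5.46 and 5.79 with control siRNA and at 2.41, 2.61 and 4.15 with BRCA2 siRNA. Replicate C of the last group lay well above the other 2. All libraries without EGF lay above all libraries with EGF, and the BRCA2 siRNA libraries lay below the control libraries there. The withdrawal difference was 3.50 ± 0.40 with control siRNA (11.3-fold), and 0.96 ± 0.35 with BRCA2 siRNA (1.95-fold). The second rested on replicate C of BRCA2 siRNA without EGF: it was 0.41 without that library, 1.28 without replicate A and 1.18 without replicate B.

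KLK10 (ENSG00000129451), a kallikrein known to be lost in many breast cancers, gave the same order of groups. With EGF it was 1.70, 1.76 and 1.80 with control siRNA and 1.66, 1.78 and 1.79 with BRCA2 siRNA. Without EGF it was 3.91 and 3.83 with control siRNA and 1.83, 2.29 and 2.69 with BRCA2 siRNA. The withdrawal difference was 2.11 ± 0.21 with control siRNA (4.33-fold) and 0.53 ± 0.19 with BRCA2 siRNA (1.44-fold). The second was 0.32 without replicate C of BRCA2 siRNA without EGF, 0.75 without replicate A and 0.52 without replicate B. KLK7 and KLK10 passed the filter through libraries without EGF alone (3 and 2 libraries, with 0 of the libraries with EGF at or above it), so a difference was built into their selection, and their folds depend on where the unknown transform places the floor.

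KLK8 (ENSG00000129455), a trypsin-like kallikrein of skin and brain, was under the filter. It stood at 0.63 to 0.65 in all 6 libraries with EGF, at 1.34 and 1.30 in control siRNA without EGF, and at 0.63, 0.64 and 1.14 in BRCA2 siRNA without EGF. Only replicate C of the last group left the floor. KLK11 (ENSG00000167757) lay between -0.78 and -0.68 in every library but the 2 of control siRNA without EGF, which were at -0.29 and -0.48. The mean differences on withdrawal with control siRNA were 0.68 for KLK8 and 0.33 for KLK11, without a test. Those with BRCA2 siRNA were 0.17 and -0.00.

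**Figure D1:**
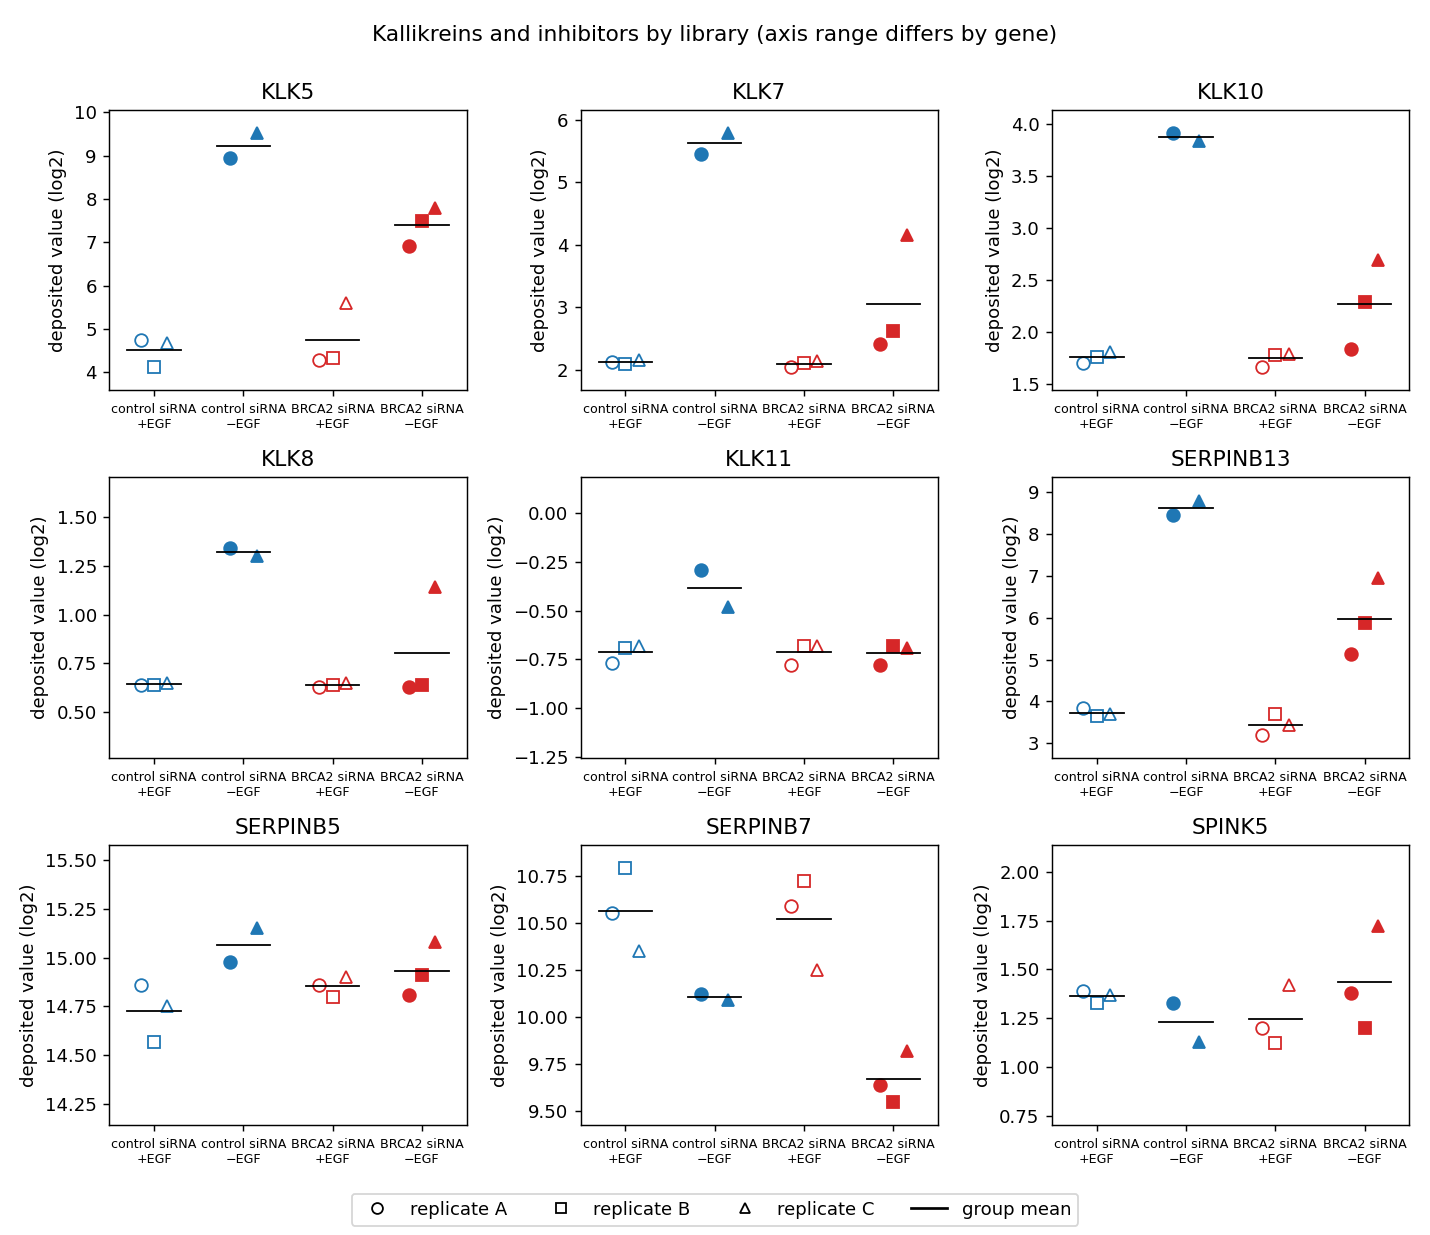
Deposited log2 value (y axis, range differs by gene) of the 9 genes in each of the 11 libraries by group (x axis); symbols are replicates A, B and C, open with EGF and filled without, blue for control and red for BRCA2 siRNA, and lines are group means. For KLK5, KLK7, KLK10 and SERPINB13 the 2 control libraries without EGF stand above all others and the BRCA2 siRNA libraries without EGF lie between them and the libraries with EGF. The share of all genes with this order was not counted.

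SERPINB13 (ENSG00000197641), the cathepsin inhibitor, followed KLK5. It was at 3.84, 3.66 and 3.69 in control siRNA with EGF and at 3.21, 3.70 and 3.43 in BRCA2 siRNA with EGF. Without EGF the values were 8.45 and 8.80 with control siRNA and 5.13, 5.87 and 6.94 with BRCA2 siRNA. The groups with and without EGF did not overlap under either siRNA, nor did the 2 groups without EGF. The withdrawal difference was 4.90 ± 0.39 with control siRNA (29.8-fold) and 2.53 ± 0.35 with BRCA2 siRNA (5.77-fold). With BRCA2 siRNA it was 1.92 among replicate A and 2.83 among B and C.

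SERPINB7 (ENSG00000166396) went the other way. It was at 10.55, 10.79 and 10.35 in control siRNA with EGF and at 10.12 and 10.09 without EGF. With BRCA2 siRNA it was at 10.59, 10.72 and 10.25 with EGF and at 9.64, 9.55 and 9.82 without it. The BRCA2 siRNA libraries without EGF were thus below all others, whereas for KLK5, KLK7 and KLK10 the control libraries without EGF stood apart. SERPINB7 was lower without EGF under both siRNAs, with a difference of -0.46 ± 0.15 with control siRNA (1.37-fold) and of -0.85 ± 0.14 with BRCA2 siRNA (1.80-fold). With quantile normalization the first was -0.32.

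SERPINB5 (ENSG00000206075) moved little. Its values were 14.86, 14.57 and 14.75 in control siRNA with EGF, 14.98 and 15.15 in control siRNA without EGF, 14.86, 14.80 and 14.90 in BRCA2 siRNA with EGF, and 14.81, 14.91 and 15.08 in BRCA2 siRNA without EGF. The withdrawal difference was 0.34 ± 0.11 with control siRNA (1.27-fold) and 0.08 ± 0.10 with BRCA2 siRNA, where the groups overlapped. SPINK5 (ENSG00000133710), the secreted kallikrein inhibitor, was under the filter, with all 11 libraries between 1.12 and 1.72 and all 4 groups overlapping. Its mean difference was -0.13 with control siRNA and 0.19 with BRCA2 siRNA, without a test.

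On withdrawal with control siRNA, 5 of the 6 tested genes were past the threshold and higher and 1 lower, where 24.7% of the 17945 genes tested were called higher and 26.1% lower. With BRCA2 siRNA 2 were higher and 1 lower, where 13.4% of all genes were called higher and 13.8% lower. The median difference of the 6 was 2.81 and 0.74, against -0.00 and 0.00 over all genes. Since these values took part in the choice of the genes, nothing is read from these counts.

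With EGF, the libraries labelled BRCA2 siRNA did not differ detectably from control for any of these genes. The differences (BRCA2 siRNA minus control siRNA) were 0.22 ± 0.35 for KLK5, -0.03 ± 0.35 for KLK7, -0.01 ± 0.19 for KLK10, -0.28 ± 0.35 for SERPINB13, 0.13 ± 0.10 for SERPINB5 and -0.04 ± 0.14 for SERPINB7. In limma 0 of the 6 were called and 0 had an unadjusted p under 0.05, and each adjusted p was 0.999. Over all genes, 0.00557% (1 gene) were called in this comparison in either direction, and 508 had an unadjusted p under 0.05.

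Without EGF, KLK5, KLK7, KLK10 and SERPINB13 were lower in the libraries labelled BRCA2 siRNA than in control libraries. The log2 difference (BRCA2 siRNA minus control siRNA) was -1.82 ± 0.40 for KLK5 (SE) and -2.57 ± 0.40 for KLK7. It was -1.60 ± 0.21 for KLK10 and -2.65 ± 0.39 for SERPINB13. For each of these 4 genes all 3 BRCA2 siRNA libraries lay below both control libraries. How many of all genes had this order was not counted, and nothing is read from it. SERPINB7 was at a difference of -0.43 ± 0.15 (limma, Benjamini-Hochberg adjusted p = 0.0678) and SERPINB5 of -0.13 ± 0.11 (adjusted p = 0.416), and neither passed. So 4 of 6 were past the threshold and lower and 0 higher, where 9.36% of all genes were called lower and 11.2% higher. Nothing is read from this count. The comparison uses the same 2 control libraries without EGF in which KLK5 and SERPINB13 had been seen to be high, and KLK10 passed the filter through those 2 libraries alone and KLK7 through them and 1 BRCA2 siRNA library, so a lower value with BRCA2 siRNA was favoured by the selection.

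Without replicate A of control siRNA without EGF, the KLK5 difference was -2.11, and without replicate C of that group it was -1.53. Within replicate A the differences were -2.02 for KLK5, -3.06 for KLK7, -2.08 for KLK10 and -3.32 for SERPINB13. Within B and C they were -1.87, -2.41, -1.34 and -2.40.

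**Figure D2:**
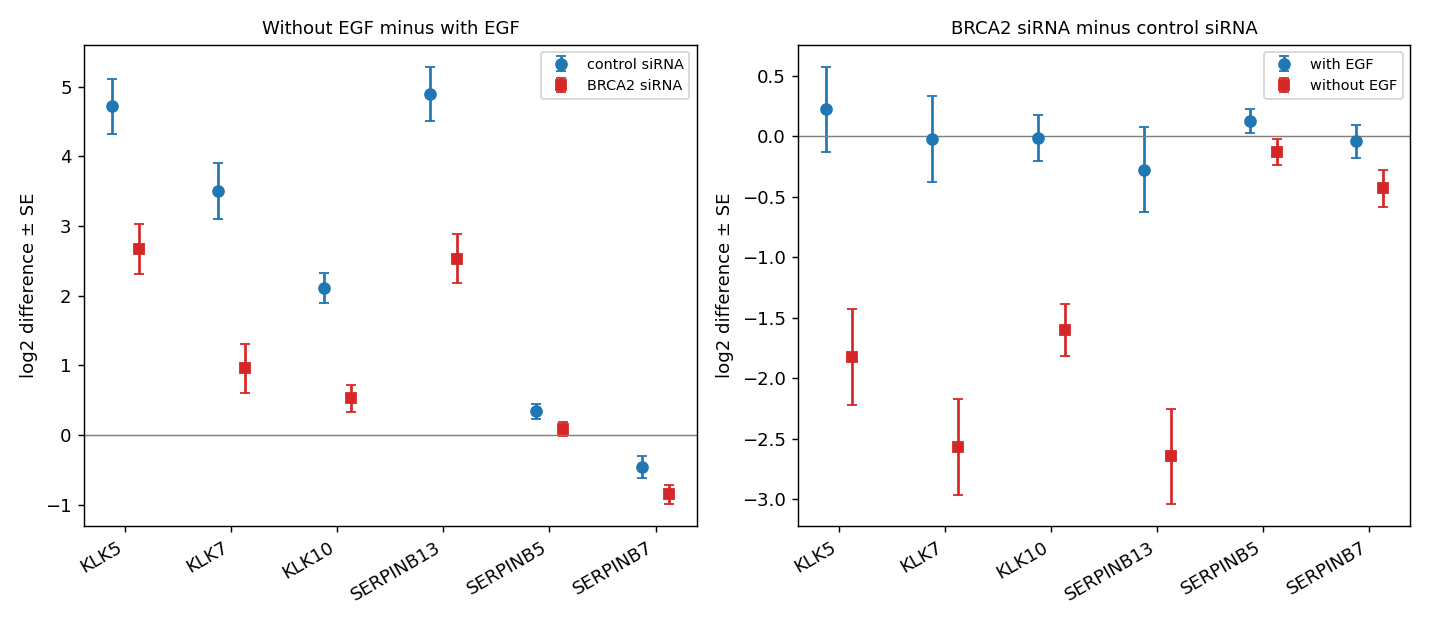
Log2 differences with their standard errors (y axis) for the 6 tested genes (x axis), left for withdrawal of EGF with control siRNA (circles) and BRCA2 siRNA (squares), right for BRCA2 siRNA minus control siRNA with EGF (circles) and without (squares). In the right panel all circles lie within 0.28 of 0, and the squares of KLK5, KLK7, KLK10 and SERPINB13 lie between -1.60 and -2.65.

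The difference between the withdrawal responses under the 2 siRNAs was computed as an interaction. For KLK5, KLK7, KLK10 and SERPINB13 the response was smaller with BRCA2 siRNA. Their interaction (withdrawal difference under BRCA2 siRNA less that under control siRNA, log2) was -2.54 ± 0.53 for KLK7, -1.59 ± 0.28 for KLK10 and -2.37 ± 0.53 for SERPINB13. The interaction of KLK5 was -2.04 ± 0.53. That of SERPINB5 was -0.26 ± 0.15 (limma, adjusted p = 0.325) and that of SERPINB7 -0.39 ± 0.21 (adjusted p = 0.297). KLK7, KLK10 and SERPINB13, 3 of 6, were past the threshold and lower and 0 higher, where 1.93% of all genes were called lower and 1.38% higher. Nothing is read from this count either, since the control libraries without EGF and the filter enter it in the same way. In limma 0 of the set were called without control siRNA with EGF replicate A, BRCA2 siRNA without EGF replicate B, or BRCA2 siRNA with EGF replicate C. Of all genes, 0, 1 and 0 were called in these fits. An unadjusted p under 0.05 was found for 4, 4 and 5 of the set and for 2982, 3240 and 3400 of all genes, and nothing is read from these counts. Leaving out replicate A or C of control siRNA without EGF leaves a lone library in that group, so those fits are not counted here. Within replicate A the interaction was -2.97 for KLK7, -2.03 for KLK10 and -2.69 for SERPINB13, and within B and C it was -2.41, -1.34 and -2.29.

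Replicate C of BRCA2 siRNA without EGF was the nearest of its group to the control libraries without EGF for KLK5, KLK7, KLK8, KLK10 and SERPINB13. Outside the set it was also the nearest for TGM1, SLPI, ST14 and DSG1, but not for FLG, where replicate B was. The share of all genes with this order was not counted, so it is not read as a trait of the set. Without replicate C of that group, the difference without EGF was -3.12 for KLK7 and -1.81 for KLK10, and the interaction of KLK5 was -2.24.

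The other genes of the system were read from lists. Of 9 other kallikreins, KLK1, KLK2, KLK3 and KLK14 were in the table and none passed the filter. Of 10 other clade B serpins 6 were tested, and on withdrawal with control siRNA 3 were higher and 1 lower (median 0.73), against 1 higher and 0 lower with BRCA2 siRNA (median 0.21). Over all genes 24.7% were called higher and 26.1% lower with control siRNA and 13.4% and 13.8% with BRCA2 siRNA, against which the counts of this and the next 3 lists stand. SERPINB3 and SERPINB10 here, and SPINK9, A2ML1 and DSC1 in the next lists, passed the filter through libraries without EGF alone. DSG1 reached it in only 1 library with EGF. A difference was thus built into the selection of these genes, and nothing is read from the list counts and medians. The single serpins called lower and higher are near those shares. SERPINB10 was higher by 2.06 ± 0.30 with control siRNA and SERPINB2, the plasminogen activator inhibitor PAI-2, by 2.26 ± 0.60. With BRCA2 siRNA their differences, 0.43 ± 0.26 and 0.72 ± 0.53, were not called. SERPINB3 was higher by 1.29 ± 0.30 and 1.00 ± 0.27, but it is nearly identical to SERPINB4, and reads could be split between them. SERPINB6 was called lower with control siRNA (-0.31 ± 0.10).

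Of 17 other epithelial protease inhibitors 6 were tested, and on withdrawal 5 were higher with control siRNA (median 1.18) and 3 with BRCA2 siRNA (median 0.46), with 0 lower. SLPI, the secreted leukocyte protease inhibitor that also blocks KLK7, was at 7.56, 8.40 and 7.22 in control siRNA with EGF and at 11.53 and 11.58 without it. With BRCA2 siRNA it was at 7.30, 8.10 and 7.51 with EGF and at 9.12, 9.08 and 10.24 without it. Its withdrawal difference was 3.83 ± 0.39 and 1.85 ± 0.35, and without EGF it was lower in the BRCA2 siRNA libraries (-2.08 ± 0.39; limma, adjusted p = 0.00564). A2ML1, an alpha-2-macroglobulin-like inhibitor, was higher by 2.47 ± 0.28 and 0.94 ± 0.25. SPINT1, which inhibits matriptase, was higher by 1.51 ± 0.17 with control siRNA, and its interaction was -1.16 ± 0.23 (limma, adjusted p = 0.0307). This interaction was not called without control siRNA with EGF replicate A or BRCA2 siRNA with EGF replicate C, where 0 of all genes were. CSTA, cystatin A, was higher by 0.86 ± 0.10 and 0.35 ± 0.09.

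Of 10 proteases that act upstream of or beside the kallikreins 6 were tested, and 3 were higher and 0 lower with control siRNA (median 0.77), against 2 higher and 1 lower with BRCA2 siRNA (median 0.15). ST14, matriptase, which can activate KLK5 precursors, was at 3.86, 4.13 and 4.07 in control siRNA with EGF and at 7.04 and 6.96 without it. With BRCA2 siRNA it was at 3.98, 4.24 and 3.70 with EGF and at 4.30, 4.61 and 5.86 without it, again with replicate C nearest to the control libraries. Its withdrawal difference was 2.98 ± 0.36 and 0.95 ± 0.32, and its interaction was -2.03 ± 0.49 (limma, adjusted p = 0.0478). Like that of SPINT1, this interaction was not called without control siRNA with EGF replicate A or BRCA2 siRNA with EGF replicate C. CTSD, the lysosomal aspartic protease cathepsin D, was higher by 1.50 ± 0.11 and 0.61 ± 0.10. CTSV, a cysteine cathepsin, was higher by 1.37 ± 0.23 with control siRNA. CTSL, another cysteine cathepsin, was called lower with BRCA2 siRNA (-0.28 ± 0.08).

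Of 7 kallikrein substrates and the receptor they signal through, 6 were tested, and 3 were higher and 1 lower with control siRNA (median 1.19), against 3 and 0 with BRCA2 siRNA (median 0.54). DSG1, desmoglein 1, a desmosomal cadherin cut by KLK5, was at 3.23, 2.72 and 3.50 in control siRNA with EGF and at 7.40 and 7.57 without it. With BRCA2 siRNA it was at 2.61, 2.76 and 3.27 with EGF and at 3.30, 3.82 and 5.31 without it. Its withdrawal difference was 4.34 ± 0.47 and 1.26 ± 0.42, and its interaction was -3.07 ± 0.63. The filter built a difference into its selection, so no p-value is printed for it. DSC1, desmocollin 1, was higher by 1.96 ± 0.22 and 0.94 ± 0.19. FLG, filaggrin, was higher by 2.34 ± 0.21 and 1.33 ± 0.19. IL1B, the cytokine whose precursor KLK7 can process, was called lower with control siRNA (-1.32 ± 0.46). F2RL1, the protease-activated receptor PAR2, was at a withdrawal difference of 0.42 ± 0.16 with control siRNA, which was not called, and without EGF it was lower in the BRCA2 siRNA libraries (-0.54 ± 0.16; limma, adjusted p = 0.0391).

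In these 4 lists, 1 of 6 other clade B serpins, 4 of 6 inhibitors, 4 of 6 proteases and 4 of 6 substrates were called lower in the BRCA2 siRNA libraries without EGF, and 0 were called higher. Over all genes 9.36% were called lower and 11.2% higher, and the serpin count is near that share. The list medians were -0.27, -0.72, -0.70 and -0.74, and that over all genes was 0.01. Nothing is read from these counts and medians. The lists were chosen with earlier results known, and the comparison uses the same 2 control libraries without EGF. SERPINB10 passed the filter through those 2 libraries alone. No gene of the 4 lists was called in the BRCA2 siRNA comparison with EGF.

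**Figure D3:**
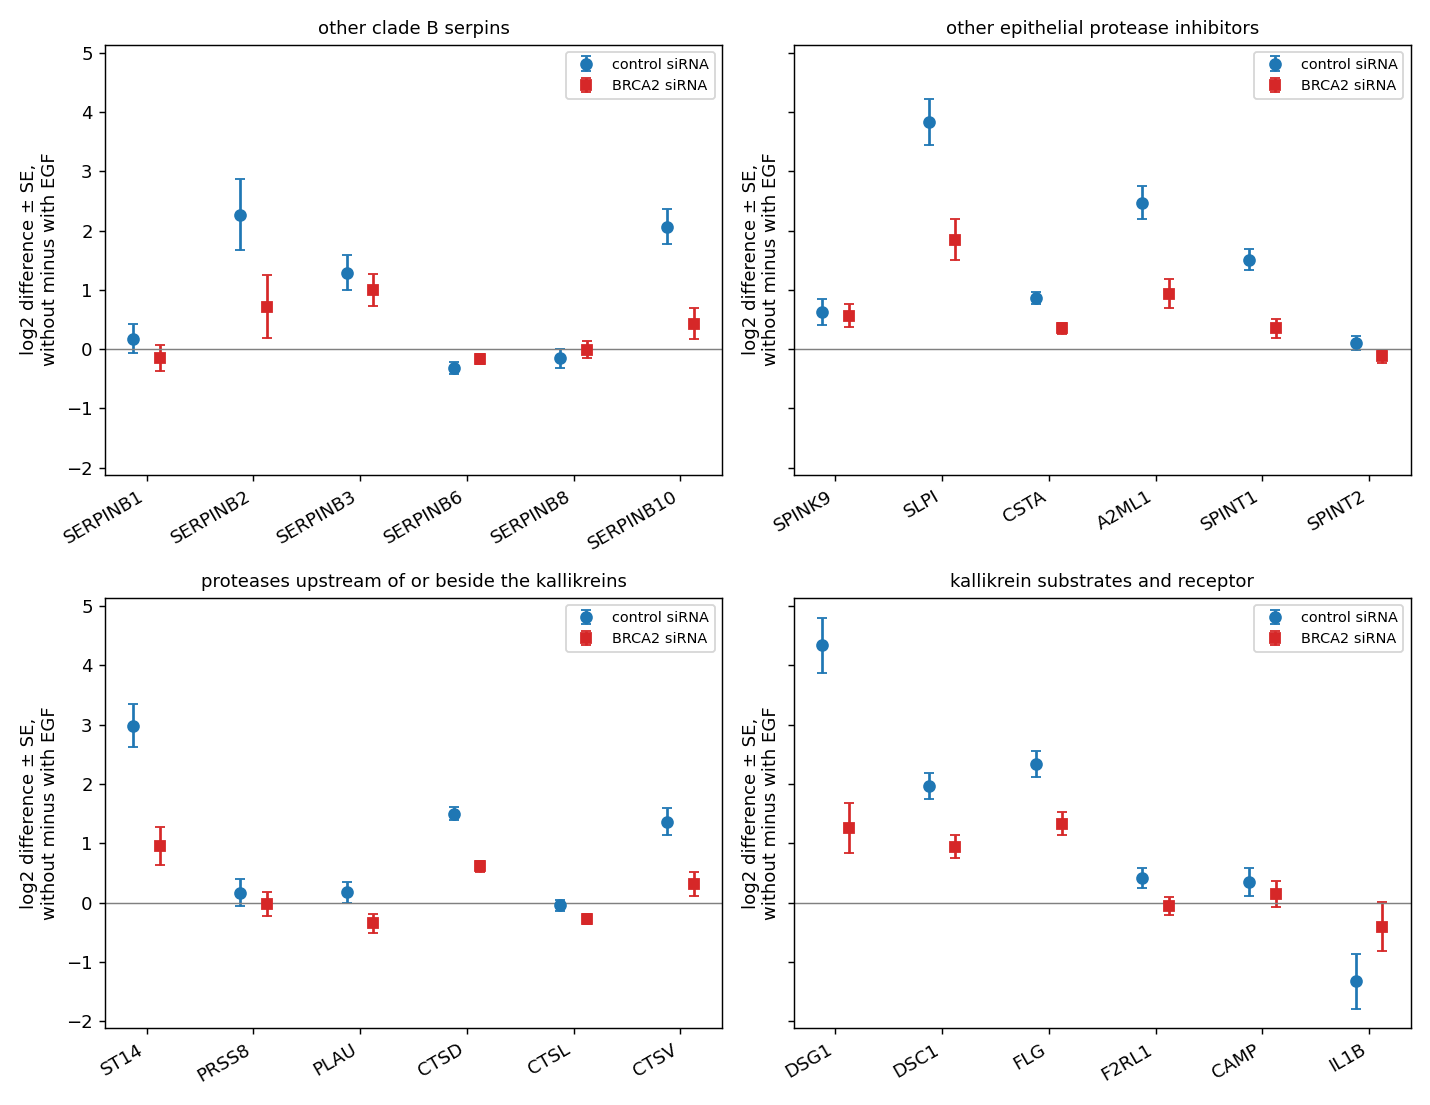
Withdrawal differences in log2 with their standard errors (y axis, 1 scale for all panels) for the tested genes of 4 lists (x axis), circles for control siRNA and squares for BRCA2 siRNA. For SLPI, ST14 and DSG1 the circle stands at 3.83, 2.98 and 4.34 and the square at 1.85, 0.95 and 1.26.

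Both gene families lie in clusters. By the RefSeq gene order (GRCh38.p14), the kallikrein cluster on chromosome 19 holds 15 genes, of which 9 were in the table and 3 tested. KLK5, KLK7 and KLK10, the 3 tested genes, lie in its middle, with KLK6 between KLK5 and KLK7, and KLK8 and KLK9 between KLK7 and KLK10. At its ends, the untested KLK1 and KLK14 had mean withdrawal differences of 0.30 and 0.04 with control siRNA. The clade B serpin cluster on chromosome 18 holds 10 genes, all in the table and 7 of them tested. SERPINB13, at 4.90 ± 0.39, lies between SERPINB12 and SERPINB4, both under the filter, whose mean differences were -0.01 and -0.09. SERPINB7, which was lower, lies beside SERPINB2, which was higher by 2.26 ± 0.60. GENCODE v29 lists antisense genes that overlap KLK5, KLK7, KLK8 and KLK10. The sources used here do not say whether reads were counted by strand, so reads of a gene and its antisense partner cannot be told apart.

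**Figure D4:**
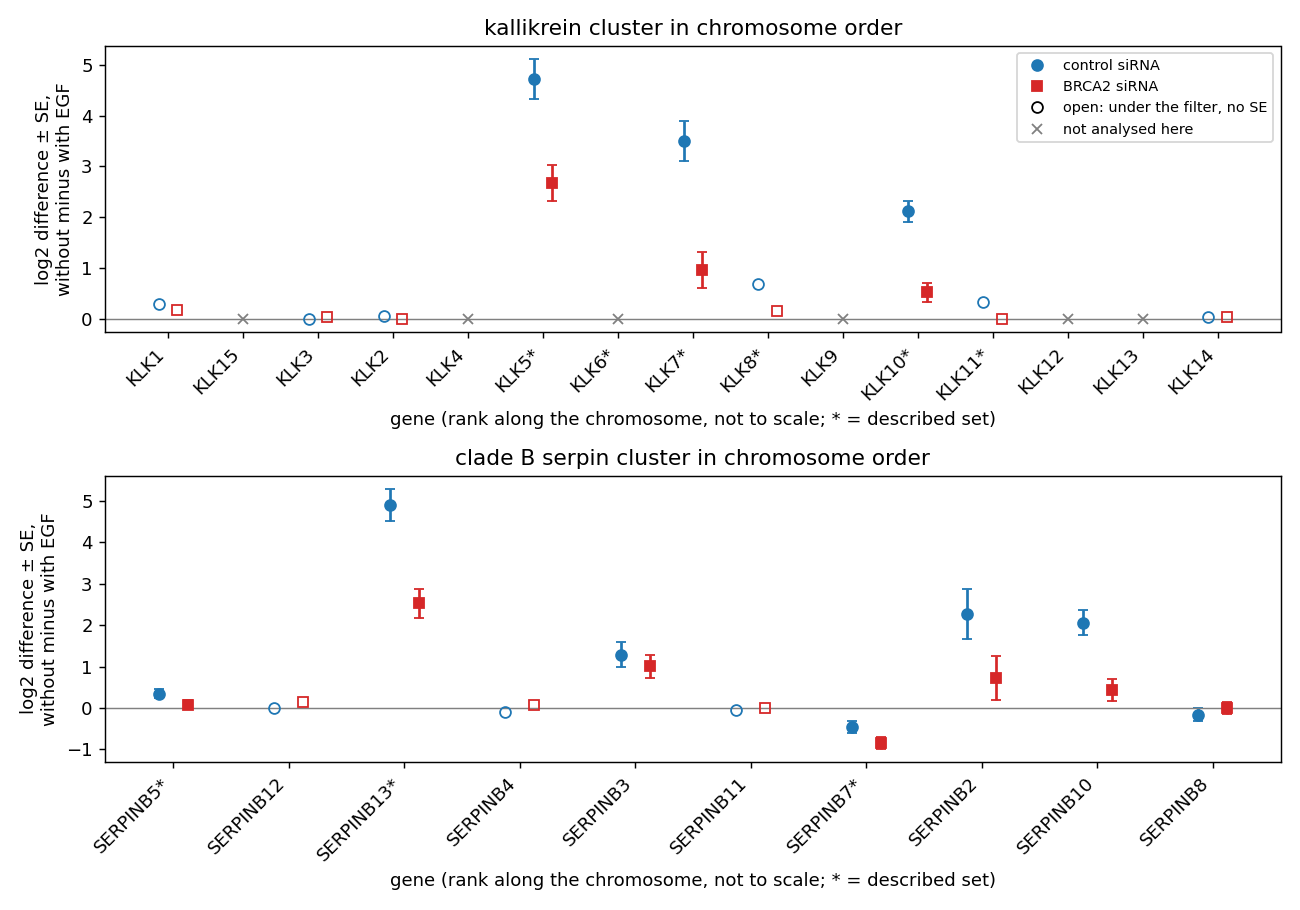
Withdrawal differences in log2 with their standard errors (y axis) along the kallikrein and clade B serpin clusters, genes in chromosome order but not to scale (x axis), circles for control and squares for BRCA2 siRNA, open symbols for genes under the filter and crosses for genes not analysed here. SERPINB13, at 4.90 with control siRNA, stands between open symbols near 0, the 3 tested kallikreins lie at 4.72, 3.50 and 2.11, and SERPINB7 lies below 0.

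The genes whose profiles over the 11 libraries were nearest to those of KLK5 and SERPINB13 were found from the root mean square difference after each gene's own mean was removed. Nearest to KLK5 were FMO2, a flavin monooxygenase (0.37 on the log2 scale), ACKR3, an atypical chemokine receptor (0.39), and TRIM29, a tripartite motif protein of basal epithelia (0.40). Nearest to SERPINB13 were TRIM29 (0.26), GPNMB, a transmembrane glycoprotein (0.28), and ACKR3 (0.31). KLK5 and SERPINB13 were each among the 25 genes nearest to the other, and the other 4 tested genes had none of the set among their 25 nearest. All these values come from the same 11 libraries and the same centring. KLK5 and SERPINB13 were chosen with their large withdrawal values known, and this measure keeps the size of differences. Their nearness was thus favoured by the choice, and nothing is read from it.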

How the data were processed

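Total RNA of hTert-HME1 cells was sequenced in 11 libraries. The authors deposited 1 table of log2 values for 40460 Ensembl genes (from -2.94 to 20.62). Per the submitters' processing notes hg19, TopHat2 2.0.11, DESeq2 and limma were used, in roles not stated. How reads were counted, with which annotation, and how counts became log2 values is not given in the sources used here. Weak genes lie at floors, so differences of low genes may be compressed. In the deposited table the replicate A mean equals the mean of B and C in every gene (largest gap 7.2e-09). Depth is unknown, so no counting interval is given.

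Symbols from a gene name table matched 37585 genes (92.9%). The 17945 genes at 10 or more on the linear scale in at least 2 libraries were fitted in limma 3.58.1 (R 4.3.3) with the 4 groups, empirical Bayes moderation and a trend. That fit has 7 residual degrees of freedom, which do not count the centring of A against B and C, so its p-values may be somewhat too small. With a term for replicate A, genes called on withdrawal fell from 9121 to 8433 with control siRNA and from 4871 to 3938 with BRCA2 siRNA. For BRCA2 siRNA without EGF they fell from 3687 to 3160, for BRCA2 siRNA with EGF from 1 to 0, and in the interaction from 595 to 500. Tests were two-sided, adjusted by Benjamini-Hochberg over all tested genes within a comparison, with a threshold of 0.05. The fit was tested on simulated data. Errors after ± are moderated standard errors. The 5 comparisons share libraries. Where the choice of the genes or the filter rested on the control libraries without EGF, no p-value is printed for KLK5, KLK7, KLK10 and SERPINB13. None is printed for DSG1, which reached the filter in only 1 library with EGF.

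The genes of the set, the lists, the rule for named genes and the promoter motifs were chosen with earlier results of these data known, and the motifs after the sequences were seen. Named genes are the set, BRCA2, up to 4 genes per list with the smallest p in a comparison, and the 3 nearest profiles of KLK5 and SERPINB13. Alternatives were a replicate block, a term for replicate A, B and C alone, the groups compared alone, no filter, a stricter filter (50 in 3 libraries), quantile normalization, no trend, and leaving out each library.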

Additional observations from a re-analysis of the deposited data

Results flagged for a closer look

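For 3 genes the interaction in limma, the difference between the responses to EGF withdrawal under the 2 siRNAs, was past the threshold. The interaction of KLK7 was -2.54, from withdrawal differences of 3.50 with control siRNA and 0.96 with BRCA2 siRNA. The interaction of KLK10 was -1.59, from 2.11 and 0.53. The interaction of SERPINB13 was -2.37, from 4.90 and 2.53. These are descriptions rather than tests: SERPINB13 had been chosen with its withdrawal values known, and KLK7 and KLK10 passed the filter through libraries without EGF alone. In the fits without 1 library the interaction was called for KLK7 in 4 of 11, for KLK10 in 6 of the 9 that tested it and for SERPINB13 in 2 of 11.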

How the results depend on the processing

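The direction of every called difference of the set was kept under every alternative run. The signs that turned were in BRCA2 siRNA with EGF, where nothing was called: KLK5 (-0.21 to 0.44 over the fits without 1 library) -0.21 without BRCA2 siRNA with EGF replicate C; KLK7 (-0.0482 to 0.0019) 0.0019 with B and C only and without BRCA2 siRNA with EGF replicate A; KLK10 (-0.0402 to 0.0269) 0.0156 with quantile normalization, 0.0269 without BRCA2 siRNA with EGF replicate A and 0.0082 without control siRNA with EGF replicate C; SERPINB7 (-0.1494 to 0.0893) 0.0680 without control siRNA with EGF replicate B and 0.0893 without BRCA2 siRNA with EGF replicate C. With B and C only, 3 genes of the set were called on withdrawal with control siRNA (6 with all libraries) and 0 with BRCA2 siRNA (3), without EGF (4) and in the interaction (3); that fit has fewer libraries and does not test KLK10. It leaves a lone control library without EGF, and nothing is read from its counts for the set. The stricter filter, which leaves KLK7 and KLK10 untested, gave 2 without EGF and 1 in the interaction. Leaving out 1 library gave 3 to 6 on withdrawal with control siRNA, 3 to 5 with BRCA2 siRNA, 2 to 5 without EGF, 0 to 4 in the interaction and 0 throughout in BRCA2 siRNA with EGF. A lone control library without EGF is there assumed to vary like the other groups. Counts over all genes moved by more than 1.5 times, among others as follows, and the cause was not tested. On withdrawal with control siRNA 9121 genes became 1975 with B and C only and 6070 without control siRNA without EGF replicate A. With BRCA2 siRNA 4871 became 46 with B and C only and 2228 to 2865 without BRCA2 siRNA with EGF replicate A or BRCA2 siRNA without EGF replicate B or C. Without EGF 3687 became 0 with B and C only (1967 at an unadjusted p under 0.05), 6780 with the groups alone, 515 and 1085 without control siRNA without EGF replicate A or C, and 1662 and 2071 without BRCA2 siRNA without EGF replicate A or B. In the interaction 595 became 930 with the replicate block, 375 with no trend, 0 with B and C only (923 at an unadjusted p under 0.05) and 0 to 1606 without 1 library. The 1 gene called in BRCA2 siRNA with EGF was not called with the replicate block or with the stricter filter, among other alternatives. Over 15 pairs of groups and letters, deviations of same-letter libraries correlated from -0.37 to 0.70, with 2 over 0.1. These 2 were control with BRCA2 siRNA, both with EGF, in replicate B (0.70) and in replicate C (0.70). Across letters B and C these groups stood at -0.64 and -0.75. The libraries with EGF were thus paired in B and C, which the fit of the 4 groups leaves out. Correlations within A cannot show pairing, since the values were centred for A against B and C. With the replicate block 6, 4, 0, 5 and 4 genes of the set were called in the 5 comparisons in the order of the report; the block added KLK7 on withdrawal with BRCA2 siRNA, SERPINB7 without EGF (-0.48, adjusted p = 0.0375) and KLK5 in the interaction (-1.92). On withdrawal with control siRNA, SERPINB5 was not past the threshold without control siRNA with EGF replicate B or control siRNA without EGF replicate C or with the groups alone, and SERPINB7 without either of these libraries, replicate A of either group, or with quantile normalization. KLK5 without EGF was not past it without control siRNA without EGF replicate A or C. The interaction of SERPINB13 was not past it with no trend. Without the filter, KLK8 and KLK11 were called on withdrawal with control siRNA and without EGF. Quantile normalization moved the median of all genes by less than 0.1 in each comparison. Genes near their floors have the least certain differences.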
